A study of Mus musculus with 9 samples.

Results

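The genes described here belong to families known for making and processing RNA, mostly messenger RNA but also the precursors of ribosomes. They are 43 of the 2402 genes in a table of normalized counts from mouse bone marrow cells. They were chosen by the start of their symbol, namely Snrp, Sf3, Hnrnp, Srsf, Prpf, Lsm, U2af, Phf5a, Rbm, Ddx, Dhx or Polr, with Snrpn left out. No symbol in the table began with Prpf, so 11 of the 12 prefixes had members. Each prefix is called a subfamily below. The choice of the 2402 genes is not given in the sources used here, so the members are only those of these families that this table holds.

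The study asked how megakaryocyte progenitors (MkP), the precursors of platelet-forming cells, differ between young and old mice and between routes of descent. Its 9 samples fall into 4 groups, all from male C57BL/6 mice in which Flt3-cre is combined with the mTmG reporter. This reporter gives red fluorescence (Tom) until Cre has acted in a cell or its ancestor and green fluorescence (GFP) afterwards, so its colour depends on where the Flt3 promoter has driven Cre. The line is called FlkSwitch. Young mice, aged 3 months, gave 3 samples, all of GFP+ MkP. Old mice, aged 18 to 20 months, gave 2 of Tom+ haematopoietic stem cells (HSC), 2 of Tom+ MkP and 2 of GFP+ MkP. MkP were sorted as Lin-, cKit+, Sca1-, CD150+, CD41+ cells and HSC as Lin-, cKit+, Sca1+, CD150+, Flk2- cells.

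The rows of the deposited table carry no sample names, so no value below belongs to a known group. No comparison of age, reporter colour or cell type was made. The libraries are numbered 1 to 9 by row, as names only, and each gene is described over these 9 values. The labels do not say whether each sample was a separate animal or a pool.

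As background, the spliceosome removes introns from newly made transcripts. Small nuclear ribonucleoproteins, built on rings of Sm or Lsm proteins, recognise the ends of the intron, and the SF3A, SF3B and U2AF proteins mark its branch site and acceptor site. SR proteins (Srsf) and heterogeneous nuclear ribonucleoproteins (Hnrnp) bind the transcript and steer the choice of splice sites. RNA helicases of the Ddx and Dhx families remodel these complexes, and others act on ribosome precursors or on messenger RNA in the cytoplasm. The Polr genes encode subunits of the nuclear RNA polymerases I, II and III. Point mutations in several core splicing factors are known from human myeloid neoplasms.

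Libraries 3 and 4 stood apart from the others across the table. Reads on the table's genes numbered 1790670 to 4373460 per library. Markers of megakaryocytes (7 of 10 listed genes measured) summed to 3061 and 8764 normalized counts in libraries 3 and 4 and to 72965 to 135706 elsewhere. Stem cell markers (7 of 8 measured) summed to 21567 and 14609 there and to 117 to 1319 elsewhere. In libraries 8 and 9 Hoxb5 (195 and 112) and Ndn (804 and 718) lay above libraries 1, 2, 5, 6 and 7 (at most 11.8 and 100). Not all stem cell markers did so, for example Procr in library 9 (17.4). All 8 markers of dividing cells were measured and summed to 7882 and 25628 in libraries 3 and 4 and to 59623 to 107456 elsewhere. Granulocyte and monocyte markers (3 of 6 measured) summed to 12916 and 12329 there and to 335 to 2138 elsewhere, nearly all of it Prtn3, while Csf1r had 0 and 1.14 there and up to 82.6 elsewhere. Erythroid markers (3 of 6 measured) summed to 287 and 309 there and to 5752 to 8528 elsewhere. Most of that sum was Aqp1, and in library 8 Rhd (3.15) and Ermap (10.5) were about as low as in libraries 3 and 4. Lymphoid markers (4 of 6 measured) summed to 731 and 1185 there and to 2243 to 27189 elsewhere, where Nkg7 made nearly all of the sum. Klrb1c (493 and 469 against at most 68.2) and Lck (44.8 and 43.5 against at most 26.8) were instead higher in libraries 3 and 4. Of the measured markers only Csf1r and Klrb1c were at 0 in a library. The part of these cell types in the values below was not tested.

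On the deposited scale most of the 43 members followed 1 shared pattern. Of the 43, 37 were lowest in library 3, and 40 had libraries 3 and 4 as their 2 lowest. Of the 2341 genes that reached 10 normalized counts in 2 or more libraries, 36.6% were lowest in library 3 and 41.0% had libraries 3 and 4 as their 2 lowest. That gap narrows at the members' own level of expression. Among the 641 genes with a median of at least 1000 normalized counts 85.6% were lowest in library 3, beside 31 of the 33 members at that level, and 91.9% had libraries 3 and 4 as their 2 lowest, beside 32 members. Library 7 was the highest for 26 members as deposited, against 24.8% of all genes and 72.7% of members beside 69.1% of genes at a median of at least 1000. It was the highest for only 8 members with libraries scaled to their table totals (7.35% of all genes) and 7 with quantile normalization (13.2%). In bulk samples such as these, fewer cells of a type and less RNA per cell cannot be told apart.

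**Figure D1:**
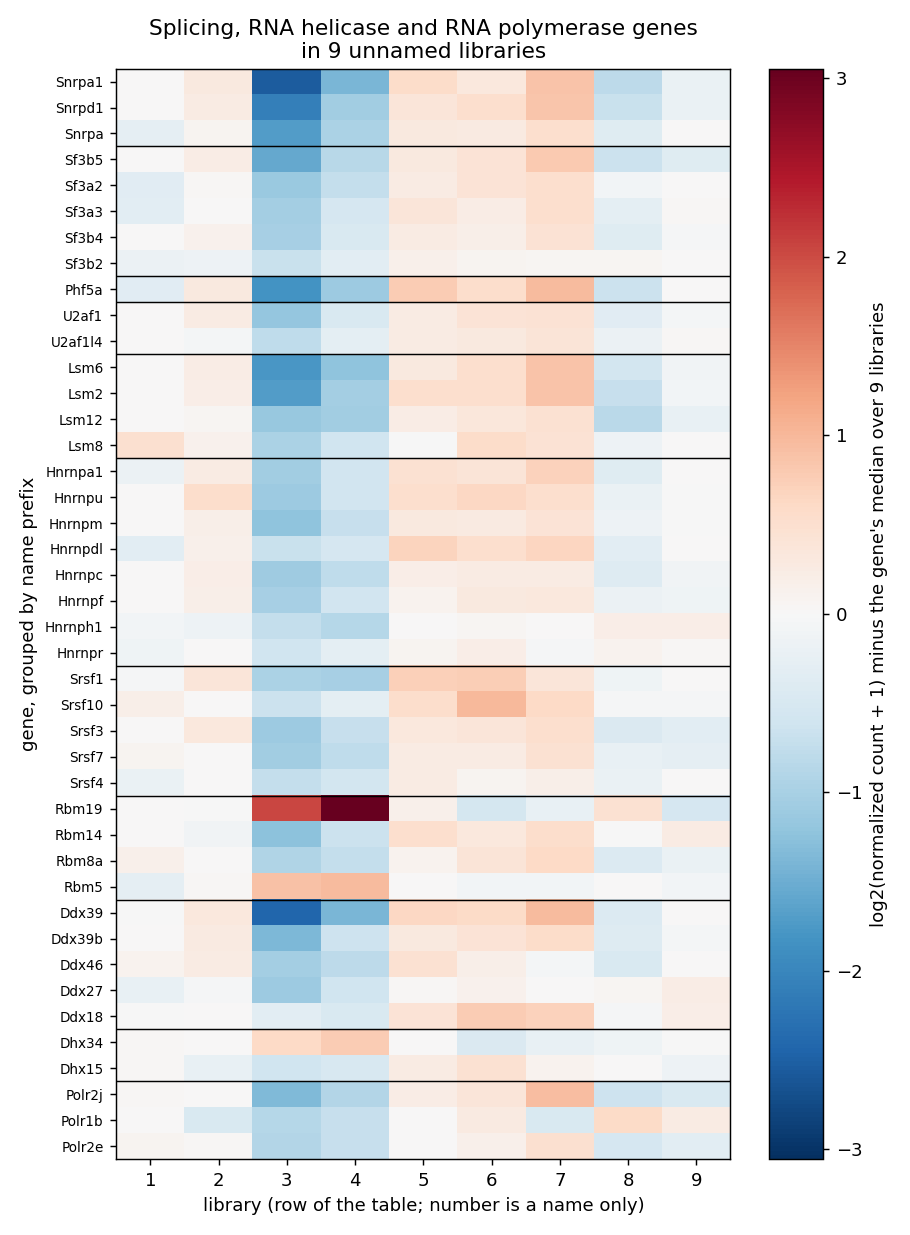
Each row is 1 of 42 members and each column 1 of the 9 libraries, and the colour gives log2(normalized count + 1) minus the gene's own median over the libraries. On this deposited scale columns 3 and 4 are blue for 39 genes (of all 43 members, 34 are below their median in library 3 with table totals and 35 with quantile normalization) and red for Rbm19, Rbm5 and Dhx34, and column 7 is the highest for 25 genes (of all 43 members, 8 with table totals and 7 with quantile normalization). In library 4 only 28 of all 43 members are below their median with table totals and 26 with quantile normalization.

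On the deposited scale fewer members than genes of the table had a wide range. The range is the highest library divided by the lowest, with a pseudocount of 1 added to each normalized count. Its median was 3.08-fold over the members and 6.16-fold over all 2341 genes. A range of at least 4-fold was found in 11 of 43 members (25.6%) against 66.4% of all genes, and a range under 2-fold in 3 members against 3.93%. At a median of at least 1000 normalized counts 10 of 33 members reached 4-fold, against 49.0% of genes at that level. Counting error alone did not cover the spread of reads over the libraries for any of the 43 members (chi-square test, Benjamini-Hochberg adjusted over 2341 genes), and 98.7% of all genes passed the same test, so this test sets no member apart. It compares libraries, not conditions.

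**Figure D2:**
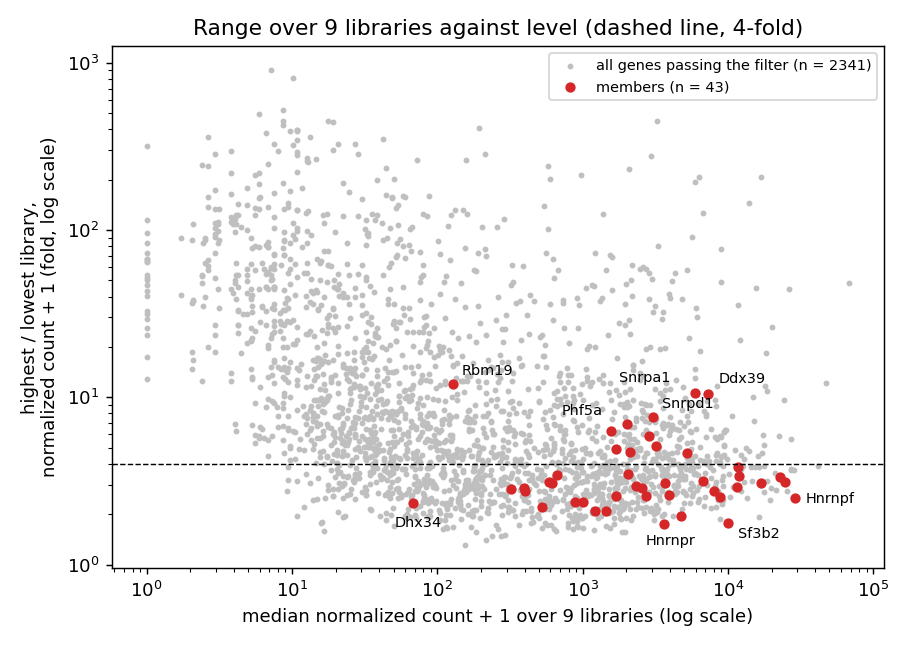
Each point is a gene, with its median normalized count on the x axis and the ratio of its highest to its lowest library on the y axis, both logarithmic, members in red and all 2341 genes in grey. On this deposited scale 11 members lie above the dashed line at 4-fold, with Rbm19, Snrpa1 and Ddx39 at the top and Hnrnpr and Sf3b2 at the bottom.

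The fold between libraries depends on the scaling, and direction in libraries 3 and 4 depends on it for some members. Under the deposited scaling the median gene of the table lay 0.72 above its own median in library 3 on the log2 scale, whereas the median member lay at -1.05. The difference between these medians was -1.77, and it was -1.77 with libraries scaled to their table totals and -1.78 with median-of-ratios scaling. It was -0.43 with quantile normalization, which forces the libraries to 1 distribution. In library 4 the difference was -1.13 as deposited and -0.10 with quantile normalization. Against genes of like level the sign turned. At a median of at least 1000 normalized counts the members deviated by -1.11 in library 3 and -0.70 in library 4 on the log2 scale, and all genes at that level by -1.27 and -0.85. The members also lay less far down than those genes in library 3 with table totals (-0.42 and -0.56), median-of-ratios scaling (-1.74 and -1.89) and quantile normalization (-0.36 and -0.63). The number of members below their own median in library 3 was 40 as deposited (42.6% of all genes) and with median-of-ratios scaling (45.9%), 34 with table totals (38.4%) and 35 with quantile normalization (49.2%). In library 4 this number was 40 as deposited and with median-of-ratios scaling. It fell to 28 with table totals (12 above) and 26 with quantile normalization (14 above). The share of all genes was not counted for library 4. Members with a range of at least 4-fold numbered 5 with table totals, or 11.6% against 68.0% of all genes. They numbered 33 with median-of-ratios scaling, or 76.7% against 70.5%, so the order of members and table turned there. At a median of at least 1000 the shares with that scaling were 78.8% of members and 81.0% of genes. None of the 43 reached 4-fold on the deposited scale without libraries 3 and 4.

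**Figure D3:**
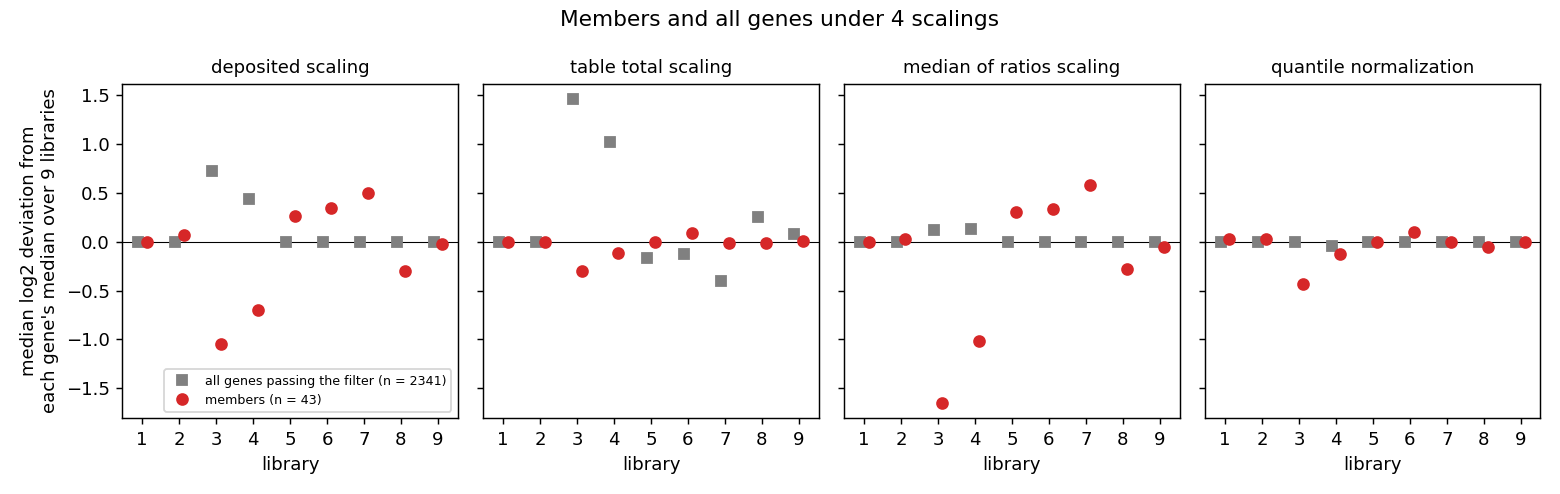
Each panel is 1 scaling of the same reads, with the library on the x axis and the median log2 deviation from each gene's own median on the y axis, for members (red circles) and for all 2341 genes (grey squares). In library 3 the members lie below all genes in each panel, with a difference of -1.77 on the log2 scale as deposited and -0.43 after quantile normalization. Genes with a median of at least 1000, which are not drawn apart, lie lower than the members at that level in library 3 in all 4 scalings.

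Shares and ratios of reads within a library are the same under any scaling by 1 factor per library, which quantile normalization is not. The 43 members took 5.09% of the reads of the table in library 3 (95% Wilson interval 5.05 to 5.12), 6.31% in library 4, and between 6.70% and 7.29% in the other 7. Intervals here cover counting error only. Among the members' own reads the subfamilies were not in constant proportion. The 3 Snrp genes took 3.10% in library 3, 4.29% in library 4 and up to 7.25% in library 7. The 4 Rbm genes took 4.32% and 3.98% in libraries 3 and 4, and no more than 2.67% elsewhere. The 8 Hnrnp genes held 42.8% to 47.2% of the members' reads, with the lowest share in library 7 and not in library 3.

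The Snrp genes encode proteins of the small nuclear ribonucleoproteins. Their median range was 7.67-fold as deposited, above that of the other subfamilies with more than 1 member. It was 3.34-fold with table totals, near the 3.25-fold of the Rbm genes, and 4.58-fold with quantile normalization, below the 4.94-fold of the Lsm genes. Snrpa1 encodes a protein specific to the U2 particle. Its normalized counts were 1019 in library 3, 2248 in library 4 and 3420 in library 8, with a median of 5942 and a highest value of 10878 in library 7. This is a 10.7-fold range (95% exact counting interval 9.94 to 11.5), which was 4.84-fold without library 3. Snrpd1, one of the Sm ring proteins, went from 712 in library 3 through a median of 3032 to 5473 in library 7, or 7.67-fold (3.78-fold without library 3). Snrpa, a protein specific to the U1 particle, went from 1594 through a median of 5190 to 7416 in the same libraries. Its range was 4.65-fold (2.80-fold without library 3).

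Snrpa1 and Snrpa did not keep their proportion. The ratio of Snrpa1 to Snrpa, in reads per kb of annotated exon, was 0.598 in library 3 (exact counting interval 0.548 to 0.651) and 0.794 in library 4. It was 0.801 in library 8, 0.925 in library 9, and 1.12 to 1.37 in libraries 1, 2, 5, 6 and 7. Without libraries 3 and 4 the 3 genes still ranged 1.86-fold to 3.18-fold. In the mm10 assembly with GENCODE M21, Snrpa1 lies on chromosome 7 from 66059003 to 66074587 on the plus strand.

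The SF3A and SF3B complexes, which bind the branch site with the U2 particle, held members of narrow and of wide range. Sf3b2, a large SF3B subunit, ranged 1.76-fold as deposited, from 6256 in library 3 through a median of 9955 to 11016 in library 5. Its deviation in library 3 was -0.67 on the log2 scale as deposited but 0.15 with table totals and 0.45 with quantile normalization. With those scalings it ranged 1.68-fold and 1.87-fold, wider than Sf3b4 (1.32-fold and 1.28-fold). Sf3b5, a small subunit of the same complex, ranged 5.12-fold, from 1096 in library 3 through 3217 to 5617 in library 7 (3.13-fold without library 3). Phf5a, another small SF3B subunit close to the branch-site pocket, ranged 6.91-fold, from 566 through 2016 to 3921 in the same libraries (4.19-fold without library 3). Subunits of 1 complex therefore differed in range over the same 9 libraries. Sf3b4 ranged 2.77-fold around a median of 8078. The SF3A subunits Sf3a2 and Sf3a3 ranged 3.17-fold around 6727 and 2.93-fold around 2341.

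The reads of Phf5a per kb were 0.285 times those of Sf3b2 in library 3, 0.368 times in library 4 and 0.389 times in library 8. In library 9 the ratio was 0.638, in library 1 it was 0.562, and in library 7 it was 1.18 (interval 1.13 to 1.24). The ratio of Sf3b5 to Sf3b2 had its lowest value, 0.311, in library 3 and its highest, 0.955, in library 7 as well. Library 8 was thus near libraries 3 and 4 for the Phf5a ratio, though its normalized counts of Sf3b2 (10426) were far above theirs (6256 and 8013). The U2AF subunit U2af1, which recognises the acceptor site, ranged 3.08-fold, from 1630 in library 3 through 3714 to 5018 in library 7 (1.86-fold without library 3). Its paralog U2af1l4 ranged 2.22-fold around a median of 522. The order of U2af1 and U2af1l4 held with table totals (1.57-fold and 1.3-fold) and turned with quantile normalization (1.6-fold and 3.25-fold).

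Lsm2, Lsm6 and Lsm8 belong to the ring that binds U6 small nuclear RNA. Lsm6 ranged 6.25-fold, from 462 in library 3 through 1577 to 2894 in library 7, and Lsm2 5.90-fold, from 882 through 2863 to 5209 (3.71-fold without library 3). Lsm8, the subunit that distinguishes this nuclear ring from the cytoplasmic one, ranged 2.85-fold, from 202 in library 3 through 394 to 578 in library 6. With table totals the ranges of Lsm6, Lsm2 and Lsm8 were 2.72-fold, 2.57-fold and 1.79-fold. With quantile normalization they were 5.48-fold, 2.96-fold and 5.42-fold, so Lsm8 was no longer the narrowest. The ratio of Lsm6 to Lsm8 in reads per kb ranged 2.37-fold between library 3 (2.36) and library 7 (5.6). Lsm12, a divergent family member outside this ring, went from 277 in library 3 through 618 to 860 in library 7. In library 8 Lsm12 was at 350, nearer to library 4 (296) than to library 9 (532).

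The Hnrnp genes had a median range of 2.55-fold as deposited, the narrowest of the subfamilies of at least 3 members on that scale. With table totals it was 1.57-fold, beside 1.53-fold for the Sf3 and 1.55-fold for the Srsf genes, and with quantile normalization 1.48-fold, beside 1.45-fold for the Sf3 genes. As deposited none of the 8 reached 4-fold, and 7 were lowest in library 3. Hnrnpf, a binder of G-rich RNA, was the most abundant member per exon length, with a median of 9450 normalized counts per kb. Its normalized counts ran from 14321 in library 3 through 28794 to 35925 in library 7, a 2.51-fold range. Hnrnpm had a range of 3.11-fold around 24649, Hnrnpu, a nuclear scaffold protein, 3.34-fold around 22966, and Hnrnpa1, a classic splicing repressor, 3.37-fold around 12001. Hnrnpa1 is known for many processed copies in the genome, with which reads can be shared. As deposited Hnrnpr (1.76-fold, interval 1.66 to 1.86) and Sf3b2 (1.76-fold, 1.70 to 1.82) had the narrowest ranges of the 43, with overlapping intervals. Hnrnpr ran from 2372 in library 3 through 3607 to 4172 in library 6.

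Both the direction and the rank of Hnrnpr depend on the scaling. It lay 0.60 below its own median in library 3 on the log2 scale as deposited, but 0.14 above it with libraries scaled to table totals and 0.41 above it after quantile normalization. Its range was 1.86-fold with table totals, where Hnrnpf ranged 1.3-fold, and 2.02-fold with quantile normalization, where Hnrnpa1 ranged 1.21-fold. Hnrnph1 was lowest in library 4 (796), not 3 (868), and highest in libraries 8 and 9 (both 1677). The remaining Hnrnpc and Hnrnpdl ranged 2.52-fold and 2.57-fold.

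The SR protein genes had a median range of 3.09-fold as deposited, with no member at 4-fold, and 4.78-fold with median-of-ratios scaling. Srsf3, which also serves in messenger RNA export, ranged 3.09-fold around a median of 16951, and Srsf7 2.89-fold around 11572. Srsf4 had the narrowest range of the subfamily as deposited, 1.95-fold, from 2904 in library 3 through 4782 to 5675 in library 5. Srsf1, the founding SR protein, differed from the other 4 in its lowest library. It had 330 normalized counts in library 4 and 339 in library 3, a median of 668 and a highest value of 1130 in library 6. Srsf10, a splicing repressor when dephosphorylated, was also highest in library 6 (1166), against at most 900 in any other library and a median of 591.

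As deposited, 3 of the 43 members had their highest value in library 4 and none in library 3. Together these libraries were highest for 56.2% of all genes, a share that was not counted for genes of like level. At a median of at least 1000 normalized counts, where 33 members lay, 85.6% of genes were lowest in library 3 and 69.1% highest in library 7. Of the 3 members, Rbm19 and Dhx34 had low medians, 126 and 66.7. Rbm19, a nucleolar protein of ribosome production, had 1057 normalized counts in library 4 and 521 in library 3. In the other 7 libraries it lay between 86.7 and 176. Its range of 12.1-fold (interval 9.42 to 16.0) was the widest of all members as deposited and 5.96-fold without library 4. With median-of-ratios scaling it was 9.62-fold, below Snrpa1 at 17.4-fold. Under each of the 4 scalings it was highest in library 4 and above its own median in library 3.

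Rbm5, a splicing factor known for its role in apoptosis genes, was also higher in libraries 3 and 4. It had 1898 and 1977 normalized counts there and 835 to 1046 in the other 7, a 2.37-fold range over all 9 libraries. Without libraries 3 and 4 its range was 1.25-fold as deposited. Dhx34, a helicase of nonsense-mediated decay, was low throughout, with 103 and 116 normalized counts in libraries 3 and 4 and 49.0 to 68.9 elsewhere. Its 2.33-fold range had a counting interval of 1.59 to 3.57, and with quantile normalization its sign turned, to 0.72 and 0.30 below its median on the log2 scale in libraries 3 and 4. Rbm5 stayed above its median in libraries 3 and 4 in all 4 scalings, by 0.29 and 0.62 on the log2 scale with median-of-ratios scaling.

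The other Rbm genes went with the majority. Rbm14, a coactivator that binds RNA, ranged 3.49-fold, from 856 in library 3 through 2057 to 2990 in library 7 (2.29-fold without library 3). Rbm8a, a core protein of the exon junction complex, ranged 2.87-fold around 2551. Rbm5 lies on chromosome 9 from 107740371 to 107770996 on the minus strand and Rbm19 on chromosome 5 from 120116465 to 120198981 on the plus strand, both protein-coding.

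**Figure D4:**
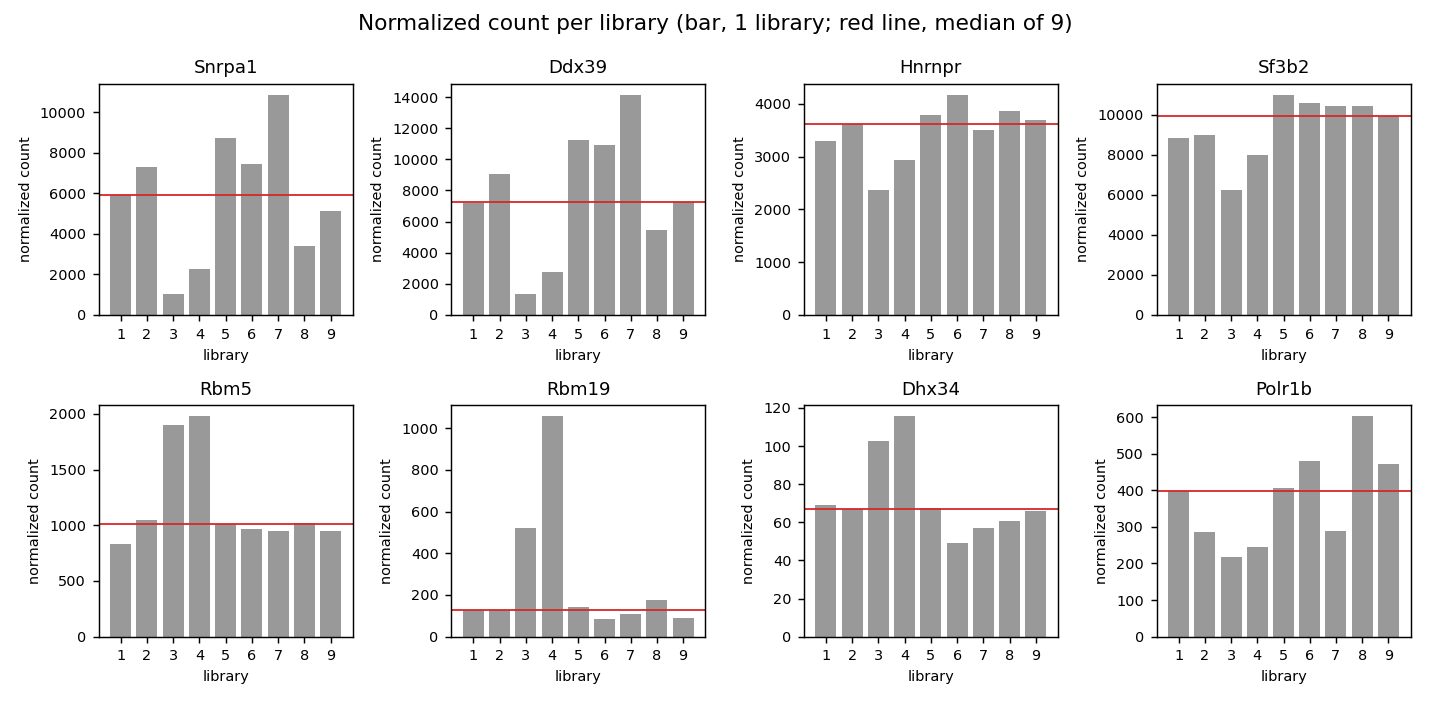
Each panel gives the normalized counts of 1 gene in the 9 libraries, with 1 bar per library, a red line at the median and an axis of its own that starts at 0. Snrpa1 and Ddx39 are lowest in library 3, and Hnrnpr and Sf3b2 have a range of 1.76-fold on this deposited scale. Rbm5, Rbm19 and Dhx34 are highest in library 4, and Polr1b is highest in library 8. With quantile normalization Rbm5 is highest in library 3 and Dhx34 in library 5, and with table totals Rbm5 is highest in library 3.

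Ddx39 and Ddx39b, close paralogs among the helicases, differed in range. Both act in messenger RNA export, and Ddx39b also acts in early spliceosome assembly. Ddx39 had 1354 normalized counts in library 3, 2763 in library 4, a median of 7275 and 14159 in library 7, a 10.5-fold range (interval 9.83 to 11.1) that was 5.12-fold without library 3. Ddx39b ranged 3.82-fold, from 4501 in library 3 through 11735 to 17180 in library 7 (2.29-fold without library 3). Relative to Ddx39b, per kb, Ddx39 stood at 0.221 in library 3 (interval 0.206 to 0.236), 0.270 in library 4, and 0.444 to 0.605 in the other 7. Since the sequences are alike, reads could have been assigned between them in part by the counting, which is not described.

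The helicases of ribosome production in the table were Ddx18 and Ddx27. Ddx18 ranged 2.37-fold, from 643 in library 4 through 885 to 1523 in library 6, and Ddx27 ranged 2.56-fold. Dhx15, which takes spent spliceosomes apart, ranged 2.09-fold, from 800 in library 3 through 1214 to 1673 in library 6. Ddx46, a helicase of branch-site recognition, ranged 2.85-fold. For Ddx18 and Dhx15 the deviation in library 3 turned from -0.31 and -0.60 on the log2 scale as deposited to 0.18 and 0.05 with table totals.

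Of the polymerase genes, Polr2e, a subunit that the nuclear enzymes share, ranged 2.61-fold, from 2126 in library 3 through 3931 to 5551 in library 7. Polr2j, a polymerase II subunit, ranged 4.89-fold, from 670 through 1709 to 3282 in the same libraries. With table totals and quantile normalization Polr2e ranged 1.34-fold and 1.46-fold and was highest in library 1. On the deposited scale Polr2e and Polr2j shared their lowest and highest libraries with most members.

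Polr1b, the second largest subunit of polymerase I, did not. It was lowest in library 3 (217) but highest in library 8 (602), followed by libraries 6 (480) and 9 (471), with 289 in library 7. On the deposited scale it was the only member highest in library 8. It was highest there under all 4 scalings, joined by up to 5 other members with table totals. Per kb its ratio to Polr2e was 0.1 in library 8 (interval 0.0915 to 0.11), 0.0691 in library 9 and 0.0239 in library 7 (0.0205 to 0.0277), a 4.20-fold spread. In libraries 3, 4, 5 and 6 the ratio was between 0.0463 and 0.0505, so libraries 3 and 4 did not stand apart here.

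**Figure D5:**
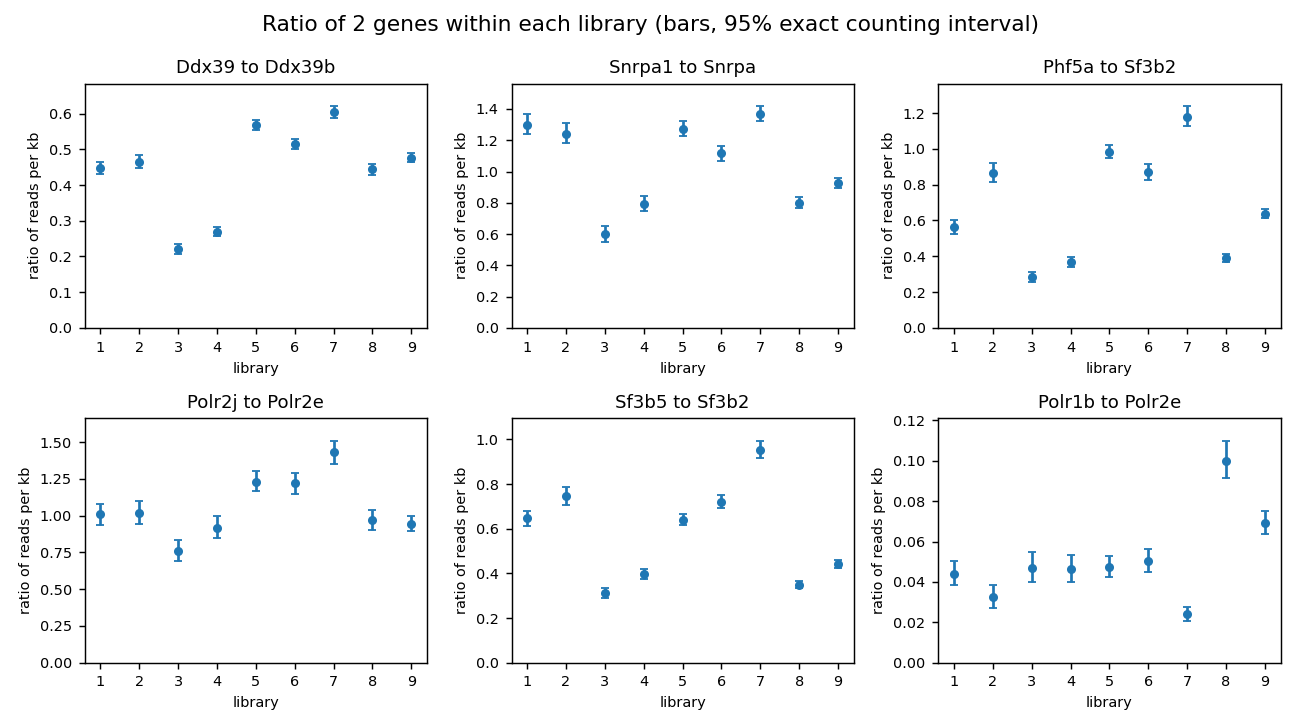
Each panel gives the ratio of 2 genes in reads per kb of annotated exon in the 9 libraries, with 95% exact counting intervals and an axis that starts at 0. Ddx39 to Ddx39b, Snrpa1 to Snrpa, Phf5a to Sf3b2, Sf3b5 to Sf3b2 and Polr2j to Polr2e are lowest in library 3, while Polr1b to Polr2e is highest in library 8 and lowest in library 7.

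Differences among the remaining libraries were smaller but shared. Without libraries 3 and 4 the median range of the members was 1.86-fold (2.46-fold over all genes) and the widest was 3.18-fold, in Snrpa1. In that set 29 of 43 members were lowest in library 8 (26.9% of all genes), 26 were highest in library 7 (27.7%) and 17 ranged at least 2-fold (66.7%). At a median of at least 1000 normalized counts these shares were 69.7% of members and 59.3% of genes, 72.7% and 70.7%, and 39.4% and 48.0%, in the same order, so they lay near those of genes of like level. At the median the members deviated by -0.30 on the log2 scale in library 8 and by 0.50 in library 7. The Snrp genes deviated further, at -0.68 and 0.85, and the Lsm genes at -0.64 and 0.67. The Hnrnp genes deviated less, at -0.19 and 0.36.

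Other genes of these pathways were counted in the same way. From a list of 84 further spliceosome and RNA processing genes 17 were in the table, of which 15 were lowest in library 3, and 4 of the 17 reached a 4-fold range. Of all genes 36.6% were lowest in library 3 (85.6% at a median of at least 1000) and 66.4% reached a 4-fold range, so the first count is near that of abundant genes. Their median range was 3.43-fold. Snrnp25, a protein of the minor spliceosome, ranged 6.81-fold, from 155 to 1058, and Ewsr1 2.76-fold around 25577. The kinase gene Srpk2, whose product phosphorylates SR proteins, was instead highest in library 3, at 199 against a median of 73.8. Of 55 further genes of polymerase machinery 7 were measured, and 4 of them were lowest in library 3. Taf1a (172 against a median of 51.4) and Gtf3c3 (60.2 against 26.3) were instead highest in library 3, and Tfb2m (110 against 69.9) in library 4. Only 1 of the 7 reached a 4-fold range, Gtf3c3, at 11.5 to 60.2 normalized counts. Of 16 other RNA helicases only Helz2 and Ifih1 were measured, at no more than 24.8 and 153 normalized counts, and both were highest in library 3.

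Among gene families of similar kind, 28 mitochondrial respiratory, ribosome and import genes had a median range of 5.0-fold and a median deviation of -1.53 on the log2 scale in library 3. The 28 ubiquitin and proteasome genes had 3.49-fold and -0.90, beside 3.08-fold and -1.05 for the members. These differences between families were not tested.

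Promoter sequence was looked at as a description of the members, and any link to how they vary was not tested. Windows of 250 bases before the start, from RefSeq on GRCm38.p6, were found for 35 of the 43 members. Their median ratio of observed to expected CpG was 0.93, beside 0.70 in 1712 other genes of the table and 0.54 in 17491 protein-coding genes. Motifs were searched as exact letters on both strands, and overlaps were allowed. The GC box (GGGCGG) was in 62.9% of members' windows, 59.6% of those of other table genes and 42.7% of those of protein-coding genes. An ETS site (CCGGAAG) was in 25.7%, 13.0% and 9.12%, and an NRF1 half-site (GCATGCGC) in 17.1%, 4.32% and 2.98%. For the members these were 9 and 6 of the 35 windows. The CCAAT box (CCAAT) was in 45.7%, 36.7% and 36.3%, and the TATA box (TATAAA) in 8.57%, 6.83% and 12.4%. The comparison sets were not matched to the members' level of expression. A median of at least 1000 normalized counts was reached by 33 of the 43 members and 641 of the 2341 genes. Differences by family and by level therefore cannot be told apart here, for CpG or for motifs. A match of letters is a description and does not show binding.

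The windows below are those of single genes, with bases of any annotated exon removed, 5′ to 3′ on the gene's strand. Capitals mark matches to the motifs on either strand. These 5 genes were chosen after their values were seen. Snrpa and Polr2j were lowest in library 3 and ranged 4.65-fold and 4.89-fold as deposited. Several members ranged wider, such as Snrpa1 (10.7-fold) and Ddx39 (10.5-fold), and are not shown. After removal of exon bases 190 bases were left for Polr2j, 202 for Rbm19 and 245 for Dhx34. Rbm19, Rbm5 and Dhx34 were the 3 members highest in library 4 as deposited. Snrpa is at chr7:27196272-27196521 on the minus strand, Polr2j at chr5:136116441-136116630 on the plus strand, Rbm19 at chr5:120116263-120116464 on the plus strand, Rbm5 at chr9:107771003-107771252 on the minus strand and Dhx34 at chr7:16222038-16222282 on the minus strand.
Snrpa: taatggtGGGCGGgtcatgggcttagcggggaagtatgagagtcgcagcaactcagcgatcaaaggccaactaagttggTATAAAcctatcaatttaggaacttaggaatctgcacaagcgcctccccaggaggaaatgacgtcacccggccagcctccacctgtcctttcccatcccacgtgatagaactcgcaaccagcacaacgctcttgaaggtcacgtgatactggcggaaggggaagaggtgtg
Polr2j: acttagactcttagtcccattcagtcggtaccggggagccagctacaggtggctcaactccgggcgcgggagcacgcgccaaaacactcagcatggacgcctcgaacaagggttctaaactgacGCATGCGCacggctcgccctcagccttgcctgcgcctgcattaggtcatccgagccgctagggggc
Rbm19: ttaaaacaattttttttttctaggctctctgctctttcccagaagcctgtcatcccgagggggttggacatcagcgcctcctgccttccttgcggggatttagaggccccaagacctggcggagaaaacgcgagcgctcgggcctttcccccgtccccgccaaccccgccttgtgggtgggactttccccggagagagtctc
Rbm5: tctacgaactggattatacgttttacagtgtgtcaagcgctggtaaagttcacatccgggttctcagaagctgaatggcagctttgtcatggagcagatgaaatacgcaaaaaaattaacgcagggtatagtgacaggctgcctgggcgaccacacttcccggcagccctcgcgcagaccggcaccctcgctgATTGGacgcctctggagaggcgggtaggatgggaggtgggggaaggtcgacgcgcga
Dhx34: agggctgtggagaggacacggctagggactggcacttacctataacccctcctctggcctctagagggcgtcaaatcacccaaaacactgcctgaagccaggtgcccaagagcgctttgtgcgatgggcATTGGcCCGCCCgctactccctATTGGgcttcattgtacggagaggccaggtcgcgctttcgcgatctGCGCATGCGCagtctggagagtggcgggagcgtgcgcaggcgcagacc
The capitals mark a GC box and a TATA box in Snrpa, an NRF1 half-site in Polr2j and a CCAAT box in Rbm5. Dhx34 holds 2 CCAAT boxes, a GC box and 2 overlapping NRF1 half-sites, and Rbm19 holds none of the searched motifs in its 202 bases. An NRF1 half-site was thus present both in a gene lowest and in a gene highest in libraries 3 and 4.

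Shared annotation limits some values. All 43 members matched 1 protein-coding gene of GENCODE M21, and 18 have an exon overlapped by another annotated gene. For 10 members such a gene is protein-coding. It is on the same strand for Snrpa1 (Gm45213), Hnrnpm (March2), Rbm14 (Gm21992) and U2af1l4 (Gm49396), where strand could not separate the reads. Genes on the opposite strand overlap Ddx39 (Adgre5), Polr2j (Lrwd1), Hnrnpu (Cox20) and Rbm19 (Gm10390), among others. For Snrpa (BC024978) and Srsf4 (Gm12992) the overlapping gene is on the opposite strand and is itself in the table. Whether the counting used strand is not given in the sources used here, so reads of the opposite-strand pairs cannot be told apart either.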

How the data were processed

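Messenger RNA of 9 sorted mouse bone marrow samples was sequenced. The table the authors deposited holds normalized counts (a signal, not raw reads), 2402 genes across and 9 unnamed rows down. Bowtie2, STAR, DESeq and the mm10 build are listed in the submitters' processing notes, without role or version. How reads were counted, on which annotation, and how the scaling was done is not given in the sources used here. No row was tied to a sample, so the comparisons between groups implied by the design were not made, and p-values between groups are absent.

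Within each row, 1 read was worth the same amount for every gene (0.724 to 1.96 normalized counts, depending on the row), and 100% of values gave whole reads within a tolerance of 0.1. Recovered reads were used for the chi-square test (adjusted p under 0.05), for intervals (95%, exact conditional binomial for ratios, Wilson for shares) and for other scalings. Statistics were run on the 2341 genes that reached 10 normalized counts in 2 or more rows. A count of 0 would allow up to 3 reads, and no member was at 0. Named genes were all members of a subfamily of fewer than 5. From a larger one they were the 2 most abundant by median, the 2 of widest range and the 1 of narrowest range. This names 37 members, and the other 6, the 12 ratio pairs and the level of 1000 were chosen after values were seen. Members and lists were chosen with earlier results of these data known. Values of 1 member are not reported here, though it is in the counts. Steps were tested on simulated data. Python 3.11.15, numpy 2.4.6, scipy 1.17.1, pandas 2.3.3 and matplotlib 3.10.9 were used.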

Additional observations from a re-analysis of the deposited data

How the results depend on the processing

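No paired analysis was possible because no row of the table carries a sample name or replicate number. With table totals 5 members ranged at least 4-fold (11 as deposited), against 68.0% of all genes, and the median range was 1.79-fold. In that scaling 24 members were lowest in library 3 (28.7% of all genes) and 8 highest in library 7 (7.35%). With median-of-ratios scaling 33 members ranged at least 4-fold (76.7%, against 70.5% of all genes) and the median range was 4.79-fold, against 6.48-fold over all genes. With quantile normalization the median range was 2.14-fold, 7 members were highest in library 7, and the members lay -0.43 from all genes in library 3 on the log2 scale. That difference was -1.24 when genes had to reach 10 in every library, where fewer low genes enter the comparison. Without libraries 3 and 4 there were 0 members at 4-fold and the median range was 1.86-fold. Leaving out 1 library at a time gave 5 to 11 members at 4-fold, median ranges of 2.37-fold to 3.08-fold (for both, the low end is without library 3), and differences of -1.91 to -1.67 in library 3. Over these omissions the number lowest in library 3 was 37 to 40 and the number highest in library 7 was 26 to 28. With all 9 libraries the shares of all genes were 36.6% and 24.8%, and they were not counted for each omission. Pseudocounts of 0.5 and 5, no filter and a floor of 3 reads left the counts of members at 4-fold at 11. The number of members that differed beyond counting error was 42 with median-of-ratios scaling and without libraries 3 and 4, and 43 in every other setting in which that test was run. Depth limits the members with few reads, such as Dhx34, whose counting interval spans 1.59-fold to 3.57-fold.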
